A study of Mus musculus with 8 samples.

Results

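The 10 genes of filaggrin processing and skin hydration described here were measured in mouse skin treated with MC903 alone or with MC903 plus phytic acid. They were chosen by name: proteases that act on filaggrin or on each other (Casp14, Asprv1, Blmh, Capn1, Prss8, St14 and Furin), histidase (Hal), the water and glycerol channel Aqp3, and corneodesmosin (Cdsn). The choice was made with earlier results of these data known. All 10 were found among the 21885 named genes of the expression table, and all 10 passed the expression filter. The data are RNA sequencing of 8 libraries of whole skin, 4 per group, and both groups had received MC903, so no library is of untreated skin. MC903 is calcipotriol, a vitamin D analogue whose application brings about an inflammation like atopic dermatitis in mice, and phytic acid is the inositol phosphate store of plant seeds. The sources used here name no strain, age, sex, body site, dose or time. The question the design poses is how MC903 skin that also received phytic acid differs from MC903 skin.

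Filaggrin is made in the granular layer of the epidermis as profilaggrin, a long chain of repeats that proteases cut into monomers. The monomers bundle keratin, and are later broken down into free amino acids, which hold water in the cornified layer as the natural moisturizing factor. Histidase turns one of these amino acids, histidine, into urocanic acid. Aqp3 lets water and glycerol into keratinocytes, and corneodesmosin glues cornified cells together until proteases cut it for shedding.

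Hal rose and Blmh, Aqp3 and Cdsn fell with phytic acid, while the 3 proteases at the head of the cascade and the other 3 profilaggrin proteases did not pass the test. The mean level of Hal was 4.5-fold higher, at 99.2 ± 18.3 FPKM (SD, n = 4) against 22.1 ± 16.01. FPKM divides the reads of a gene by its length in kilobases and by the size of the library. Mean levels were 2.35-fold lower for Blmh, 2.11-fold lower for Aqp3 and 2.9-fold lower for Cdsn. A gene is said to rise or fall where limma's adjusted p, Benjamini-Hochberg over all 12165 genes tested, was under 0.05. By that rule 1 of the 10 genes rose and 3 fell. Of all genes tested, 25.8% were called, 14.2% higher and 11.6% lower. The share of called genes that were higher was 54.9%, but 44.6% with median-of-ratios scaling and 73.7% when libraries were centred on basal keratinocyte genes. The median log2 fold change of the 10 genes was -0.18, against 0.05 over all genes tested. With that centring the median over all genes was 0.18, a value that is not to be set beside the uncentred -0.18.

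**Figure D1:**
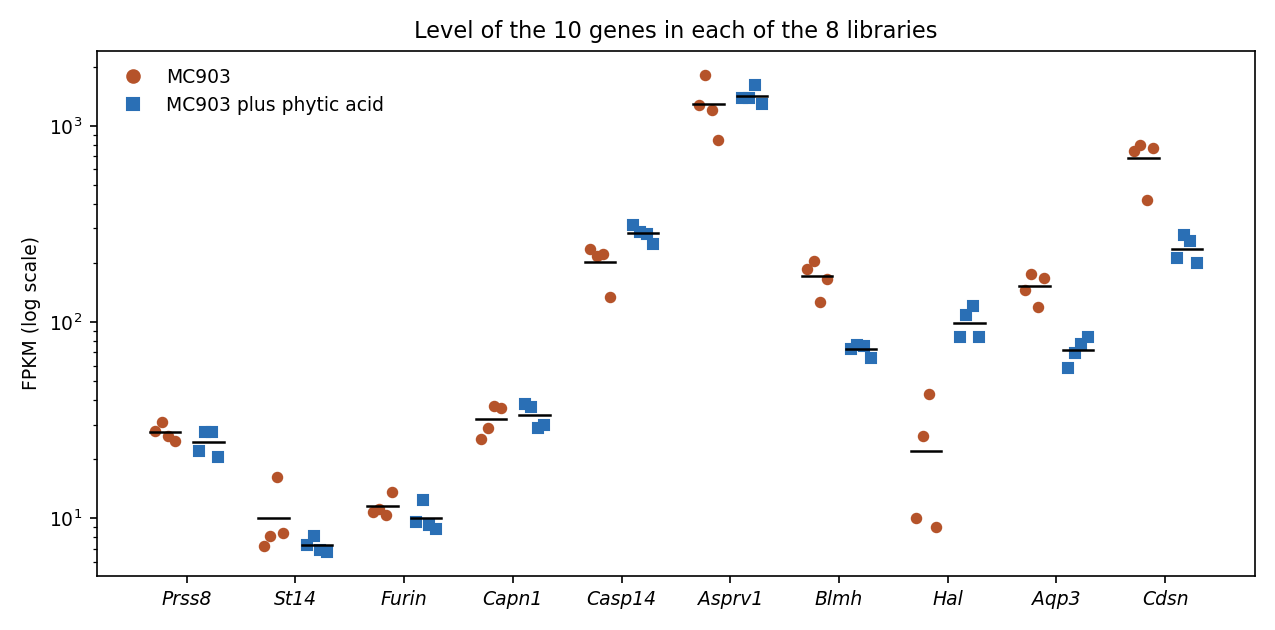
FPKM of each of the 10 genes (log axis) in 4 MC903 libraries (circles) and 4 MC903 plus phytic acid libraries (squares), with a bar at each group mean. The groups do not overlap for Casp14, Blmh, Hal, Aqp3 and Cdsn.

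The library totals recovered from the FPKM values ran from 31676934 to 42997272 reads, and the 9 genes whose reads could be recovered had at least 1539 reads in each library. MC903 replicate 3 stood apart. The summed FPKM of 9 hair follicle markers, most of them keratins of the inner root sheath and hair shaft, was 3466 there. It was 1.51 to 53.6 in the other 7 libraries, and each of the 9 was highest in MC903 replicate 3. These 9 leave out Padi3 and Tchh, which are also in the lists around the members. With them, the 11 markers summed to 442 to 4419.8 in MC903 and to 20.95 to 28.5 with phytic acid. Outside MC903 replicate 3 this difference was mostly Tchh, at 458, 539 and 437 FPKM in MC903 replicates 1, 2 and 4. In these 3 libraries the 9 without Padi3 and Tchh summed to 2.11, 53.6 and 1.51, against 1.9 to 3.23 with phytic acid. Of the 11 markers 3 were tested, and 2 of them, Padi3 and Tchh, were called lower with phytic acid. Melanocyte markers summed to 126 in MC903 replicate 3 and to 3.56 to 6.71 elsewhere. Keratinocyte markers were abundant in every library, at sums of 9522 to 12888 in MC903 and 8970.2 to 10021 with phytic acid, and all 14 were detected and tested, of which 4 were called higher and 2 lower. Skeletal muscle markers were higher with phytic acid (8 of 9 tested, sums of 7699 to 9125 against 3607 to 4165), as were adipocyte markers (3 of 7, or 6 without MC903 replicate 3, 388 to 1045 against 118 to 329). Of T cell markers 3 of 3 tested were higher (sums of 7.81 to 18.3 against 2.58 to 5.4), but 1 of 3 when MC903 replicate 1 or 4 or phytic acid replicate 1, 2 or 4 was left out. Of 9 myeloid and Langerhans markers 7 were higher and 1, S100a8, was lower (sums of 1237 to 2100.3 against 711 to 1227). The call of S100a8 was lost in 5 of the fits that left out a library. In such fits 5 to 7 were higher, the call of Csf1r, or those of Csf1r and Adgre1, being lost in some. The 12 basal keratinocyte genes used for centring did not move one way: Krt14, Itga3 and Cdh3 were lower, Krt15 and Dst were higher and 7 were not called, with a median log2 fold change of -0.13. Their summed FPKM was 2749 to 3241 with phytic acid and 4498 to 8116 in MC903. None of the genes of these lists was at 0 in every library. In whole skin, fewer cells of a type and less RNA per cell cannot be told apart. The part of these markers in the results was not tested, but the values centred on basal keratinocyte genes are given for the genes that changed. The labels do not say whether libraries came from separate mice, so the spread behind the p-values may be technical.

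The bases just before the annotated start are shown for the 4 genes that changed, as 3 of them fell together. They are the 250 bases before the RefSeq start, build GRCm38.p6, written 5′ to 3′ on the strand of the gene. Hal lies on the plus strand at chr10:93488518-93488767, Blmh on the plus strand at chr11:76945406-76945655, Aqp3 on the minus strand at chr4:41098184-41098433 and Cdsn on the plus strand at chr17:35551878-35552127. Capitals mark matches to 4 motifs on either strand. These are the TATA box (TATAAA), a loose form of the AP-1 motif (TGANTCA, N being any base), the grainyhead core (ACCGGTT) and the hexamer of nuclear receptors (AGGTCA).
Hal: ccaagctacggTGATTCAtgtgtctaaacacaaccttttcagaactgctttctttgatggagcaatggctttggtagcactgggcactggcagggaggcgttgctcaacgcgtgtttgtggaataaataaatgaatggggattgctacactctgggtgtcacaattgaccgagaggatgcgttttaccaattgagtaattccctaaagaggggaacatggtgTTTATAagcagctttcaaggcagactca
Blmh: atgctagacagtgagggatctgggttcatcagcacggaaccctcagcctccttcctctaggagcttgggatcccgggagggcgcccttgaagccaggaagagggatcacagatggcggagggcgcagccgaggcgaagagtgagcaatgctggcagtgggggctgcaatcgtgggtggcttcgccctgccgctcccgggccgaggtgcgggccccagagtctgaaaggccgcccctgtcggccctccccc
Aqp3: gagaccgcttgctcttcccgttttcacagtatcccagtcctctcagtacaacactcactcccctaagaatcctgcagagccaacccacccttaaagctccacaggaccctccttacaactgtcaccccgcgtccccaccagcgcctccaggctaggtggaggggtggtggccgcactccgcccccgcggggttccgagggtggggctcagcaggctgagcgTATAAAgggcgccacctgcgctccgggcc
Cdsn: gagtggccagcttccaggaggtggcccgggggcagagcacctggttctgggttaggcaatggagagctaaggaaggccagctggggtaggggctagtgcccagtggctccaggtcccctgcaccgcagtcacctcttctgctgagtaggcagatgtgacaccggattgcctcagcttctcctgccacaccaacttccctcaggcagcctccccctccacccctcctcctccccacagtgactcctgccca
A TATA box match starts 28 bases before the start of Hal and 29 before that of Aqp3, and 12.4% of the 32851 mouse windows of this length hold one. Hal has a match to the loose AP-1 form, with T in the place of N, starting 239 bases before its start. Of windows, 6.75% hold a match to that form. The windows of Blmh and Cdsn hold none of the 4 motifs, and none of the 4 windows holds a match to the grainyhead core or the receptor hexamer, present in 0.831% and 14% of windows. These matches are a description of letters. The GENCODE span of Blmh starts at 76924809, well before the RefSeq start at 76945656, so the window shown for Blmh lies inside that span. RefSeq gives Cdsn another start, at position 35543101 of chromosome 17, whose window holds no match either. Of the 10 genes, 8 had an entry.

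The proteases that start the cascade were low to moderate in level and did not pass the test. St14 encodes matriptase, a membrane serine protease that activates prostasin. In order of replicate number, as for every such series of values, its FPKM was 7.19, 8.13, 16.3 and 8.39 in the MC903 group and 7.29, 8.14, 6.89 and 6.74 with phytic acid. The groups overlapped, and MC903 replicate 3 was the highest by far. The log2 fold change, always MC903 plus phytic acid minus MC903, was -0.35 ± 0.21 (SE, 95% interval -0.82 to 0.12), with an adjusted p of 0.256 by limma. Without MC903 replicate 3 it was -0.11 (adjusted p = 0.445 by limma). Prss8 encodes prostasin, a membrane-anchored serine protease that profilaggrin processing depends on. It ranged from 24.8 to 30.8 FPKM in MC903 and from 20.4 to 27.5 with phytic acid, a log2 fold change of -0.17 ± 0.12 (interval -0.44 to 0.10, adjusted p = 0.324 by limma). Furin, a proprotein convertase that cuts the amino-terminal part of profilaggrin, ranged from 10.4 to 13.6 and from 8.81 to 12.4, a log2 fold change of -0.19 ± 0.12 (interval -0.47 to 0.09, adjusted p = 0.297 by limma). The data of 4 libraries a group allow any difference inside these intervals, so no change and a change of that size cannot be told apart. Exons of Prss8 share 122 bases with Kat8 and those of Furin 118 bases with Gm44851, each on the opposite strand, and no source used here names the strand setting of the counting.

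Of the proteases that cut filaggrin itself, Casp14 and Asprv1 were abundant in both groups. Casp14 encodes caspase-14, an epidermal caspase that cuts filaggrin monomers. Its FPKM was 236, 218, 222 and 134 in the MC903 group and 313, 286, 281 and 251 with phytic acid. Every phytic acid library was above every MC903 library, and MC903 replicate 4 was the lowest. The log2 fold change of 0.51 ± 0.18 (SE, interval 0.10 to 0.92) nevertheless did not pass over all genes (unadjusted p = 0.0191, adjusted p = 0.0653 by limma). The adjusted p was between 0.0543 and 0.146 with any 1 library left out and between 0.0546 and 0.142 in the other alternatives. Groups that do not overlap were found for 5 of the 10 genes and for 27.3% of all genes tested. Asprv1 encodes SASPase, the aspartic protease that cuts the linker between filaggrin repeats, and was the most abundant of the 10 in both groups. It stood at 1284, 1824, 1198 and 844 FPKM in MC903 and at 1392, 1382, 1606 and 1292 with phytic acid. The groups overlapped, MC903 holding both the highest and the lowest library, and the log2 fold change was 0.19 ± 0.23 (interval -0.33 to 0.71, adjusted p = 0.589 by limma).

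The proteases of the last steps differed. Calpain-1 (Capn1) and bleomycin hydrolase (Blmh) break filaggrin peptides down to amino acids, bleomycin hydrolase acting on deiminated ones. Capn1 ranged from 25.2 to 37.1 FPKM in MC903 and from 28.8 to 38.1 with phytic acid, with a log2 fold change of 0.07 ± 0.15 (SE, interval -0.26 to 0.40, adjusted p = 0.754 by limma). Its sign turned with median-of-ratios scaling (-0.01) and without MC903 replicate 1 (-0.03). Exons of Capn1 share 394 bases with Gm10814 on the opposite strand. Blmh had an FPKM of 186, 205, 127 and 165 in MC903 skin and 72.7, 76.1, 75.8 and 65.5 with phytic acid. The groups did not overlap, MC903 replicate 3 was the lowest of its group, and the phytic acid libraries lay close together. The log2 fold change was -1.20 ± 0.15 (adjusted p = 0.00080 by limma), -1.07 centred on basal keratinocyte genes and -1.34 without MC903 replicate 3.

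Hal showed the largest change of the 10. Its FPKM was 10.03, 26.3, 42.97 and 9.03 in MC903 skin and 83.7, 108, 121 and 84.3 with phytic acid. The MC903 libraries were uneven, replicates 2 and 3 being above 1 and 4 by more than any phytic acid library differed from another in fold, and all 4 were below every phytic acid library. Within MC903 the highest library was 4.76-fold above the lowest, against 1.44-fold with phytic acid. The log2 fold change was 2.38 ± 0.43 (SE, adjusted p = 0.00435 by limma), 2.51 centred on basal keratinocyte genes and 2.78 without MC903 replicate 3. Of the 12165 genes tested, 103 (0.847%) had a larger absolute change. The next enzymes of histidine breakdown, urocanase (Uroc1), Amdhd1 and Ftcd, were under the expression filter, with no library above 0.384 FPKM.

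The FPKM of Aqp3 was 146, 176, 119 and 167 in MC903 skin and 58.02, 69.7, 77.1 and 83.9 with phytic acid. Every MC903 library was above every phytic acid library, and replicate 3 was again the lowest of the MC903 group. The log2 fold change was -1.06 ± 0.15 (SE, adjusted p = 0.00172 by limma), -0.93 centred on basal keratinocyte genes and -1.17 without MC903 replicate 3. Cdsn stood at 748, 794, 420.3 and 775 FPKM in MC903 and at 212, 277, 258 and 199 with phytic acid. The groups did not overlap although MC903 replicate 3 was far below the other 3. The log2 fold change was -1.50 ± 0.22 (adjusted p = 0.00176 by limma), -1.37 centred on basal keratinocyte genes and -1.72 without that library. In each of the 20 alternative fits, Hal was called higher and Blmh, Aqp3 and Cdsn were called lower.

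**Figure D2:**
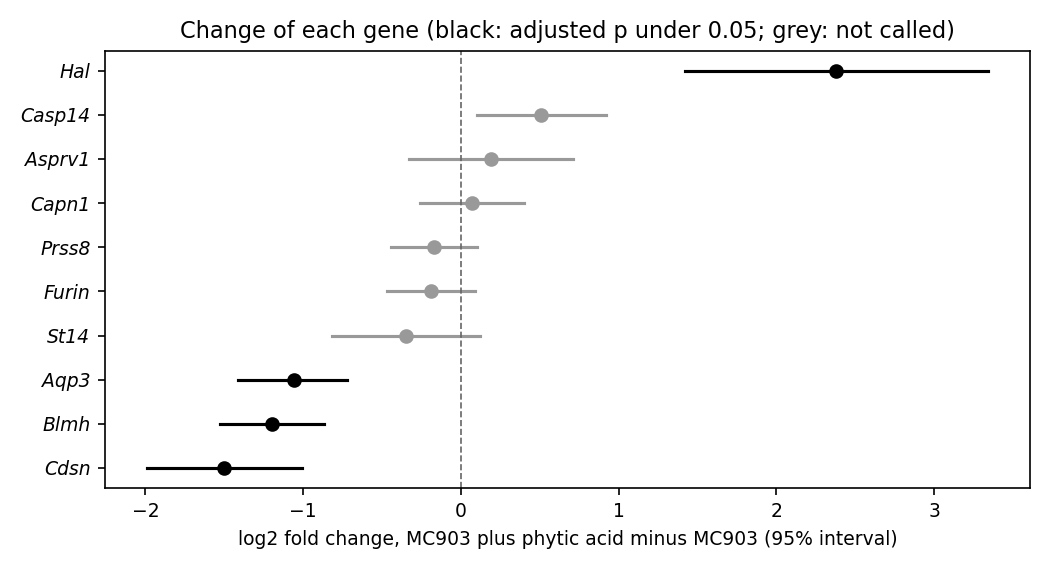
Log2 fold change of each gene, MC903 plus phytic acid minus MC903, with its 95% interval from limma. Hal (2.38) lies to the right of 0 and Aqp3 (-1.06), Blmh (-1.20) and Cdsn (-1.50) to the left, in black; the 6 grey genes were not called.

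The order of levels changed between the groups. FPKM is per length and allows levels to be set beside each other, and the order is given as a description. In MC903 the means ran from Asprv1 (1288 FPKM) and Cdsn (684) through Casp14 (203), Blmh (171) and Aqp3 (152) to Capn1 (31.9), Prss8 (27.4), Hal (22.1), Furin (11.5) and St14 (9.996). The ranges of neighbours overlapped from Casp14 to Aqp3 and from Capn1 to St14. With phytic acid, Asprv1 (1418) was followed by Casp14 (283), Cdsn (236), Hal (99.2), Blmh (72.6), Aqp3 (72.2), Capn1 (33.4), Prss8 (24.3), Furin (9.997) and St14 (7.27). There the ranges overlapped between Casp14 and Cdsn and between Blmh and Aqp3. Hal, in eighth place in MC903, was thus above Blmh and Aqp3 in all 4 phytic acid libraries.

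The members' within-library ratios to their substrate, inhibitor or partner were compared with an exact two-sided permutation test, adjusted over the 7 ratios. Flg, the filaggrin gene itself, was at 42.9, 54.6, 60.9 and 30.1 FPKM in MC903 and 73.9, 93.4, 45.8 and 35.2 with phytic acid, a log2 fold change of 0.34 ± 0.31 (SE, adjusted p = 0.463 by limma). The log2 ratio of Hal to Flg went from -1.29 ± 0.66 (SD, n = 4) to 0.75 ± 0.65, a difference of 2.04. That of Blmh to Flg went from 1.86 ± 0.58 to 0.32 ± 0.56, a difference of -1.54. The log2 ratio of Cdsn to Dsc1, a cadherin of the same junctions, went from 1.02 ± 0.34 to 0.20 ± 0.08, a difference of -0.81. In these 3 ratios the groups did not overlap, with an exact permutation p of 0.0286 each, the smallest that 4 against 4 libraries allow, and an adjusted p of 0.0667. None of the 7 therefore passed, and 3 ratios at that smallest p cannot pass over 7 whatever the size of their change. Casp14 to Flg differed by 0.17 (exact permutation p = 0.6) and Asprv1 to Flg by -0.15 (exact permutation p = 0.743). St14 to Spint1, its inhibitor, differed by 0.15 (exact permutation p = 0.0571), and Capn1 to Cast, the calpain inhibitor calpastatin, by 0.40 (exact permutation p = 0.2).

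St14 and Spint1 stood high in the same library. Spint1 was at 18.6, 19.9, 33.2 and 20.2 FPKM in MC903 and at 15.2, 16.7, 16.3 and 14.2 with phytic acid. The ratio of St14 to Spint1 in MC903 spanned only -1.25 to -0.98 on the log2 scale, replicate 3 included. Spint1 did not pass with all libraries (log2 fold change -0.49, adjusted p = 0.0568 by limma) and did without MC903 replicate 3 (-0.31, adjusted p = 0.0319). That library also held the most Padi3, a deiminase gene of the hair follicle, at 49.02 FPKM against 3.1 to 4.11 in the other MC903 libraries. The part of the follicle markers in these values was not tested.

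**Figure D3:**
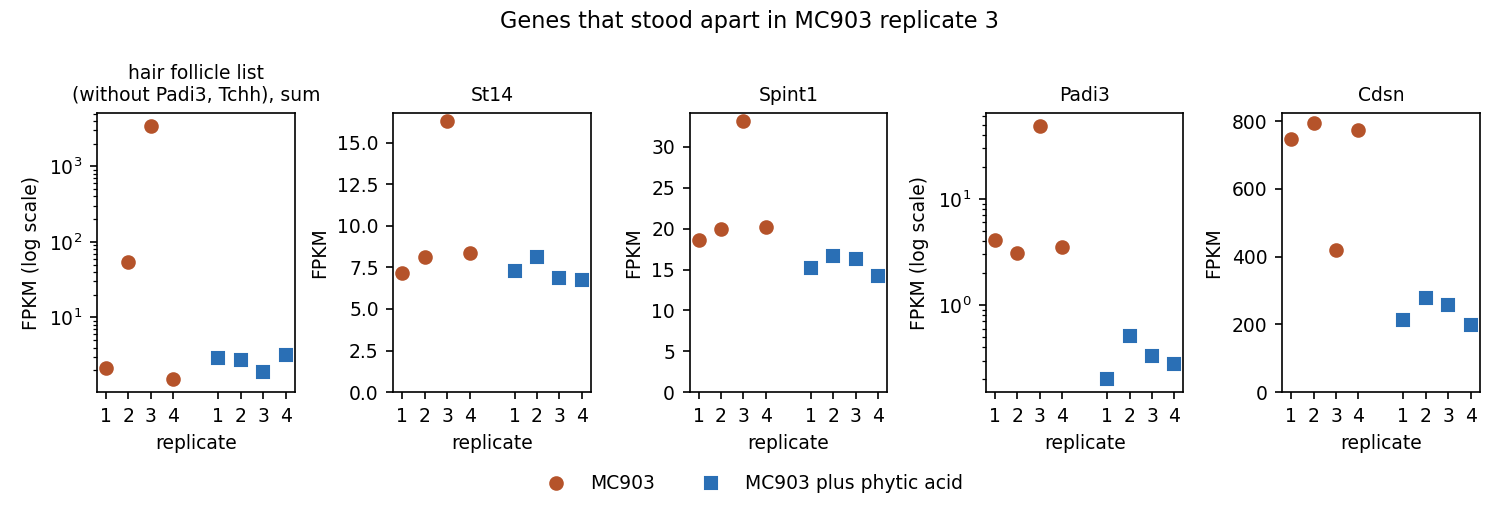
FPKM by replicate in MC903 (circles) and MC903 plus phytic acid (squares) for the summed hair follicle list, St14, Spint1, Padi3 and Cdsn. The list is shown without Padi3 and Tchh, and the panels of the list and of Padi3 have log axes. MC903 replicate 3 is the highest library in the first 4 panels (St14 16.3, Spint1 33.2, Padi3 49.02) and the lowest MC903 library for Cdsn (420.3).

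For the 4 members whose log2 level varied by an SD of at least 0.5 over the 8 libraries, the genes of most similar pattern were found. The search covered the tested genes other than the members and genes with predicted symbols, such as Gm or Rik. Likeness is the root mean square difference between log2(FPKM + 1) profiles centred on their own mean. Nearest to Hal was Lor, the gene of the cornified envelope protein loricrin, at a difference of 0.14, followed by Krt10 (a suprabasal keratin) at 0.25. Lor stood at 39.98, 119, 155 and 36.4 FPKM in MC903 and at 338, 434, 430.1 and 268 with phytic acid, so that MC903 replicates 2 and 3 were its higher ones as for Hal. Nearest to Aqp3 were Cnfn (cornifelin, a cornified envelope protein), which fell from 413 ± 61.4 FPKM (SD, n = 4) to 182 ± 17.7, and Tmem238l, at differences of 0.11 and 0.12. Nearest to Blmh were Gadd45a, a stress-induced growth arrest gene, and the riboflavin transporter gene Slc52a3, both at 0.12. Nearest to Cdsn were Slc45a4 (0.12) and the kallikrein gene Klk9 (0.13), which fell from 48.9 ± 14.8 to 15.3 ± 2.44. Among the members, Blmh lay at 0.21 from both Aqp3 and Cdsn, and the member nearest to Hal was Casp14, at 1.10. These are descriptions over 8 libraries in 2 groups, and any pair of genes with similar change comes out as alike.

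**Figure D4:**
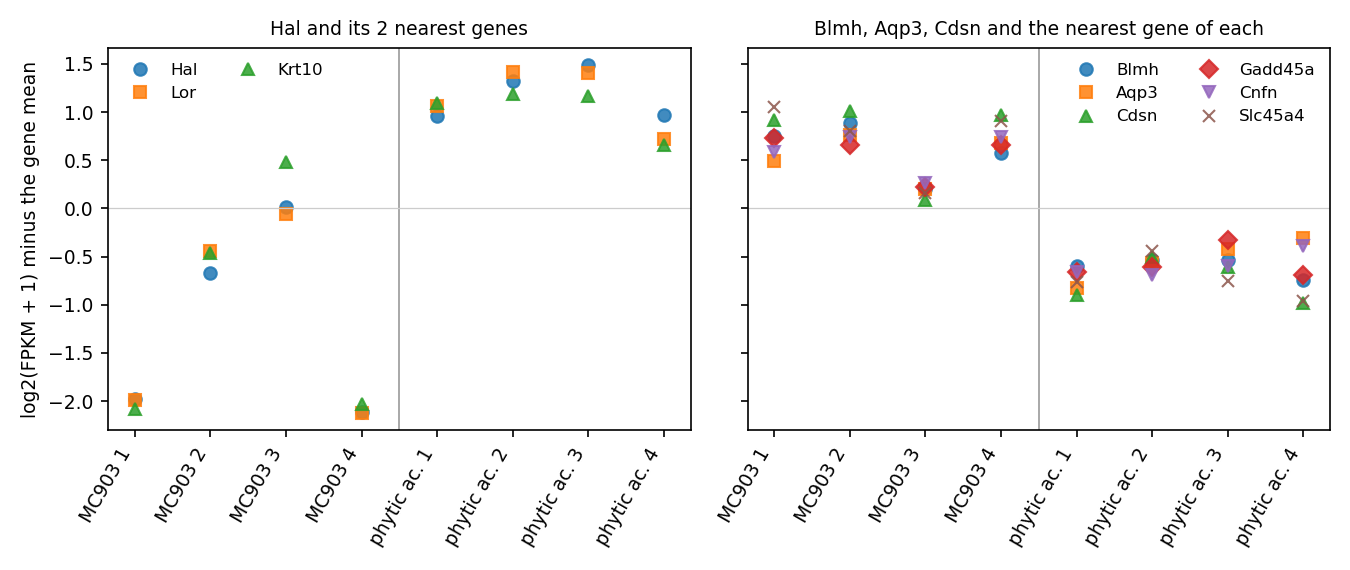
Log2(FPKM + 1) minus the gene's own mean in each of the 8 libraries (4 MC903, then 4 MC903 plus phytic acid) for Hal with Lor and Krt10 (left) and for Blmh, Aqp3 and Cdsn with the nearest gene of each (right). Hal, Lor and Krt10 share the low values of MC903 replicates 1 and 4, and the falling genes share the lower value of MC903 replicate 3 within its group.

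Genes around the members were counted in lists of their roles. Of 79 tested genes in the 8 lists, 10 rose and 33 fell, beside 14.2% and 11.6% of all genes tested. Their median log2 fold change was -0.35, against 0.05 over all genes. The lists were chosen with earlier results of these data known, so these differences from all genes are a description and not a test. Among the 7 substrates of the filaggrin family, Flg2 (filaggrin-2) rose from 13.1 ± 6.42 FPKM (SD, n = 4) to 82.04 ± 16.6. Tchh (trichohyalin) fell from 585 ± 218 to 21.1 ± 3.23 and Rptn (repetin) from 1846 ± 735 to 149 ± 21.9, and Tchhl1 fell too. Flg, Hrnr and Crnn were not called, but Hrnr (hornerin) was called higher without MC903 replicate 3. Some deiminases citrullinate filaggrin before Blmh acts on its peptides, and which of them do so in this skin was not tested. Of the deiminase genes, Padi4 fell from 18.7 ± 6.36 to 2.39 ± 0.662. Padi3 fell by 2.65 on the log2 scale (by 1.78 without MC903 replicate 3, and not called without phytic acid replicate 1). Padi2 rose from 1.69 ± 0.228 to 3.47 ± 1.42, a call lost when any 1 library other than phytic acid replicate 3 was left out. Padi1 and Padi6 were under the filter, Padi1 reaching 7.01 FPKM in MC903 replicate 3.

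Of 18 other epidermal proteases, 9 fell and 3 rose (Klk5, Tmprss4 and Pcsk6). The kallikrein genes Klk13 (log2 fold change -3.50 ± 0.36, SE) and Klk8 (-1.81 ± 0.27) were among them, and Klk6 fell from 488 ± 153 FPKM (SD, n = 4) to 122 ± 40.2. Klk5 and Klk7 are known to cut corneodesmosin, and they moved apart: Klk7 fell from 1167 ± 307 FPKM (SD, n = 4) to 476 ± 46.9 and Klk5 rose from 61.6 ± 14.6 to 94.8 ± 9.82. The call of Klk5 was lost in 4 of 20 alternatives (adjusted p up to 0.0588 by limma) and that of Tmprss4 in 10 of 20. Between 6 and 12 proteases fell with a library left out, 12 without MC903 replicate 3. Only 1 protease rose when MC903 replicate 1 or 4 or phytic acid replicate 2 was left out. Klk5 and Klk7 are outside the naming rule and were picked for their known substrate, Cdsn. Of the 10 inhibitors and partners, Serpinb6c fell (-1.70 ± 0.25) and Serpinb8 rose (0.33 ± 0.09), and 6 fell without MC903 replicate 3. The call of Serpinb8 was lost in 6 alternatives, 4 of which left out a library.

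Of 7 tested genes listed under moisturizing factor metabolism, 3 fell and 1 rose. Of the 3, Sult2b1 acts on cholesterol and not on amino acids. Slc7a1, a carrier of cationic amino acids, fell from 11.3 ± 2.59 FPKM (SD, n = 4) to 2.1 ± 0.325, Arg1 (arginase 1, which releases urea) from 80.8 ± 31.7 to 10.4 ± 5.57, and Sult2b1 (cholesterol sulfotransferase) from 19.02 ± 5.04 to 7.14 ± 0.676. The riser was Ggct, which forms pyroglutamate, at 19.8 ± 7.71 and 36.7 ± 3.71. It is outside the naming rule, and its call was lost when replicate 1 of either group was left out. Of 14 tested genes listed under water channels, osmolytes and hydration, 6 fell and 0 rose by limma. By voom 0 rose too, and 2 were higher at an unadjusted p under 0.05 by limma. The 6 were Aqp9, Gk, Pld2, Has3, Cd44 and Scnn1a, of which Gk, Pld2 and Scnn1a are not genes of water channels, osmolytes or hyaluronan. With a library left out 4 or 5 fell, the calls of Aqp9, Pld2 or both being lost, and 1 rose without MC903 replicate 3 (Nfat5) or without phytic acid replicate 3 (Akr1b3). Gk (glycerol kinase, which uses the glycerol that Aqp3 admits) fell from 11.9 ± 2.63 to 4.33 ± 0.553, Has3 (hyaluronan synthase 3) from 4.23 ± 1.49 to 1.04 ± 0.604 and the hyaluronan receptor gene Cd44 from 72.2 ± 10.8 to 36.4 ± 9.28. The other aquaporin genes in the filter were Aqp9, which fell by 0.36 on the log2 scale with a call lost in 14 of 20 alternatives, Aqp1 (-0.07 ± 0.08, SE) and Aqp7 (0.53 ± 0.28), the last 2 not called.

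Of 9 tested corneodesmosome partners of Cdsn, 5 fell and 2 rose. Dsg1b (desmoglein 1 beta) fell from 75.2 ± 13.9 FPKM (SD, n = 4) to 32.5 ± 3.72, while its close copy Dsg1a rose from 158 ± 71.7 to 330.3 ± 42.5. No source used here says how reads that fit both copies were counted, so their split is uncertain. Psors1c2, which neighbours Cdsn in the genome, fell from 165 ± 41.1 to 49.8 ± 10.97 and Pkp1 (plakophilin 1) from 392 ± 54.9 to 213 ± 42.6. A list of 11 genes held receptors and ligands that matriptase, prostasin or furin act on, or that lie downstream, and the proteases Mmp14 and Adam17. Of these 11 genes, 4 fell and 1 rose. Without MC903 replicate 1 only 2 fell, the calls of Mst1 and Mmp14 being lost, and without MC903 replicate 3 another 2 rose, F2rl1 and F2r. On the log2 scale Areg (amphiregulin) fell by 2.67 and the keratinocyte alarm cytokine gene Tslp fell by 5.30, and Epcam, a known target of matriptase, rose from 38.4 ± 13.5 to 76.7 ± 7.57. F2rl1, the receptor PAR2, was at 16.6 ± 6.86 and 25.1 ± 2.11 and was not called (adjusted p = 0.0628 by limma), except centred on basal keratinocyte genes, with library weights or without MC903 replicate 3.

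**Figure D5:**
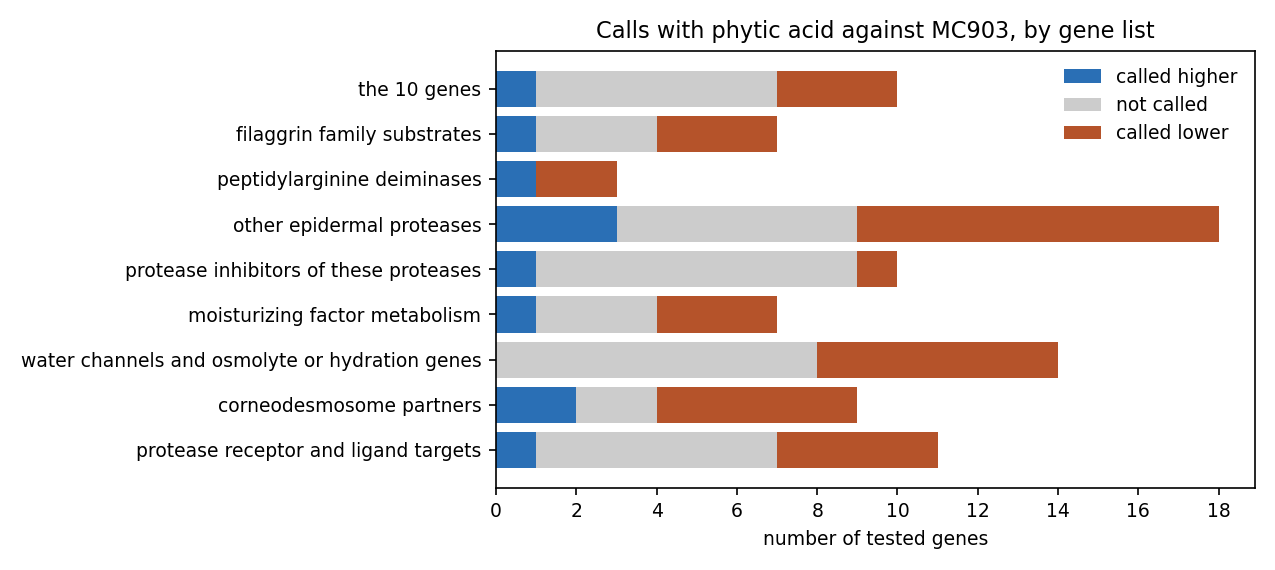
Number of tested genes called higher (blue), not called (grey) and called lower (brown) with phytic acid against MC903, for the 10 genes and the 8 lists around them. Falls outnumber rises in each bar except that of the protease inhibitors, which has 1 of each.

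The places of the 10 genes were taken from GENCODE (GRCm38, also called mm10) and are counted from 1, and all 10 are protein-coding genes. For 9 of them, all but Capn1, whole reads could be recovered in every library with the summed length of their exons. Hal spans 93488768 to 93519304 and Casp14 78711991 to 78718294 of chromosome 10. Blmh spans 76924809 to 76987379 of chromosome 11, Aqp3 41092722 to 41098183 of chromosome 4 and Cdsn 35552128 to 35557180 of chromosome 17. Asprv1 spans 86628164 to 86629710 of chromosome 6, Capn1 5988545 to 6015897 of chromosome 19 and St14 31089402 to 31131853 of chromosome 9. Prss8 (127925716 to 127930104) and Furin (80388585 to 80405436) lie on chromosome 7.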

How the data were processed

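RNA was measured in 8 skin libraries. Per the labels' protocols, RNA was extracted with TRIzol and went into SMARTER mRNA-seq libraries. The values deposited by the authors are FPKM, 1 for each gene in each library. Tools and build in the submitters' processing notes are cutadapt, HISAT2, TopHat2, DESeq and mm10. No source used here gives their roles or versions, the annotation or the strand setting.

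Of 21959 rows, 51 without a name (0.016% to 0.0238% of each column) were dropped. Where a name had several rows (21 names), the highest row was kept. Multiplied by GENCODE exon length, 97.4% of 17980 genes with a value came out within 0.05 of whole reads in every library, which gave the library totals. Because FPKM is relative to the total, abundant genes shift the rest.

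Values were analysed as log2(FPKM + 1), which understates changes of low genes. Genes reaching 1 FPKM in 4 or more libraries (12165) entered a limma 3.58.1 fit in R 4.3.3. It used eBayes with trend, group as single factor, two-sided tests and Benjamini-Hochberg adjustment. The procedure was also run on simulated independent normal values. These held far fewer changed genes than were called here and no library that stands apart, so that run does not vouch for the present calls. The members and lists were chosen with earlier results of these data known. Named genes were the members, Flg, Flg2, the second gene of each ratio, up to 3 called genes of smallest p per list, and the 2 nearest patterns of each member with an SD of at least 0.5. Genes named beyond it were chosen after their values were seen. Alternatives were pseudocounts of 0.1 and 0.01, dropping the filter, requiring a mean of 5 FPKM, TPM, median-of-ratios, quantile and basal keratinocyte scaling, no trend, library weights, a replicate block, voom on recovered reads and leaving out each library.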

Additional observations from a re-analysis of the deposited data

Results flagged for a closer look

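A library was set apart where its gap to the nearest of the other 3 in its group took up nearly the whole range of the group, by Dixon's test at the 95% level. About 1 in 20 groups is expected to be set apart by chance, and 90 groups of 4 (45 genes) were screened. All 4 cases were of MC903 replicate 3, the library with high hair follicle markers. It was the highest of its group for St14, at 16.3 FPKM against 7.19 to 8.39, for Spint1, at 33.2 against 18.6 to 20.2, and for Padi3, at 49.02 against 3.1 to 4.11. It was the lowest for Cdsn, at 420.3 FPKM against 748 to 794.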

How the results depend on the processing

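The exact test of a ratio cannot go below 0.0286, with all libraries or with 1 left out. Stability of the ratios is therefore described by their differences and not by p. Across all alternatives and with each library left out, 1 member was called higher and 3 lower. The 10 pathway genes called higher became 17 with library weights and 5 to 14 with a library left out, with 5 without MC903 replicate 1 and 6 without MC903 replicate 4 or phytic acid replicate 1. The 33 called lower ranged from 26 to 40 with a library left out and from 25 to 40 otherwise. The cause was not tested. Capn1, not called in any of its fits, reversed to -0.01 with median-of-ratios scaling and ranged from -0.03 (without MC903 replicate 1) to 0.15 with a library left out. With a library left out, the log2 ratio difference of Casp14 to Flg ranged from -0.00471 to 0.39 (below 0 without phytic acid replicate 4) and that of Asprv1 to Flg from -0.34 to 0.09 (above 0 without phytic acid replicate 2). The other ratios kept their sign, at -1.81 to -1.34 for Blmh to Flg, 1.80 to 2.30 for Hal to Flg, 0.11 to 0.20 for St14 to Spint1, 0.24 to 0.55 for Capn1 to Cast and -0.98 to -0.72 for Cdsn to Dsc1. The labels do not say whether same-numbered libraries belong together. Deviations of same-numbered libraries correlated at -0.283, -0.105, -0.286 and 0.225, and not every library correlated best with its own number. With 4 libraries a group this does not settle whether they were paired. With a replicate block, Hal (2.38, adjusted p = 0.00337 by limma), Blmh (-1.20, 0.00421), Aqp3 (-1.06, 0.00651) and Cdsn (-1.50, 0.00843) were still called, and 29 pathway genes were lower. Blocked ratios could not pass, as 4 pairs allow no p below 0.125. Among the named genes around the members, calls of Padi2, Padi3, Serpinb8, Krt10 and Dsc1 were lost in 1 to 11 alternatives each, and Spint1 and Cast were called in 2 and 3.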
